A study of Mus musculus with 44 samples.

Results

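The core circadian clock genes Arntl, Clock, Npas2, Per1, Per2, Per3, Cry1, Cry2, Nr1d1 and Nr1d2 were followed in the livers of 44 male C57BL/6N mice. Of these 10 genes, 9 had a probe set that the array annotation gave to that gene alone (1 probe set each), out of 41345 probe sets on the array, and 8 passed the expression filter and were tested among 18522 probe sets. The only probe set for Per2 was annotated to a second gene as well, so no value is given for Per2. Npas2 lay below the filter in every group, and its values are given without a test of group differences.

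All mice were 11 to 12 weeks old and had eaten their diet for 4 weeks. The control diet held vitamin E at 149 IU/kg and vitamin C at 0 mg/kg, and the vitamin E diet held 2000 IU/kg and 100 mg/kg of them, so the diets differed in both vitamins. On each diet 12 mice made a treadmill run of 60 min (speed 13 m/min, slope 14°), and 10 sedentary mice stayed in their cages beside it, without food for 60 min. The study's methods say that the livers were taken directly after the run, under ketamine and xylazine, from mice on an inverted light-dark cycle, within the first hours of the dark period. The hour at which each mouse was killed was not given in the sources used here. Its part in the differences between groups and between mice was therefore not tested. RNA from each whole liver sample was hybridised to 1 Affymetrix Mouse Gene 2.1 ST array, and levels are RMA values on the log2 scale, on which a difference of 1 is a doubling. Levels of different genes came from different probes and were not set against each other, apart from how differences between paralogs changed with exercise.

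The clock of a liver cell is a loop of transcription and repression that runs through about a day. BMAL1, the product of Arntl, pairs with CLOCK or with NPAS2 and switches on the Per, Cry and Nr1d genes through E-box sequences. PER and CRY proteins then return to the nucleus and repress this pair, and the nuclear receptors REV-ERBα (Nr1d1) and REV-ERBβ (Nr1d2) repress Arntl, Clock, Npas2 and Cry1 through RORE sequences. In liver, Arntl transcripts therefore peak at a time of day when Nr1d1 transcripts are low. Per1 is also known as a gene that answers directly to outside signals, through cAMP response elements (CRE) and glucocorticoid response elements.

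The promoters of the genes on which the results turn are shown because the activators and repressors above act through short motifs in them. RefSeq promoter windows on GRCm38.p6, running from 250 bases before to 50 after a transcription start, were held for 9 of the 10 genes, and Per2 had no entry. Both strands were searched for the E-box CACGTG, its variant CACGTT, the D-box TTATGNAA, the RORE core AGGTCA, the CRE TGACGTCA and its first bases TGACGTC, and only the last pair overlap each other. The 250 bases before the start follow, 5′ to 3′ on the gene's strand, with matches in capitals, and for Arntl a site of 30 bases just after the start.
Per1, first start, chr11:69098699-69098948 (+): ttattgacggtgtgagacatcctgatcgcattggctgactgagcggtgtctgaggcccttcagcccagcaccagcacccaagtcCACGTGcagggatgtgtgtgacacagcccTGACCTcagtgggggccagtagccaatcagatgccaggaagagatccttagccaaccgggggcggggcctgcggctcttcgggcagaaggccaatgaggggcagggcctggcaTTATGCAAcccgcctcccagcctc
Per1, second start, chr11:69099902-69100151 (+): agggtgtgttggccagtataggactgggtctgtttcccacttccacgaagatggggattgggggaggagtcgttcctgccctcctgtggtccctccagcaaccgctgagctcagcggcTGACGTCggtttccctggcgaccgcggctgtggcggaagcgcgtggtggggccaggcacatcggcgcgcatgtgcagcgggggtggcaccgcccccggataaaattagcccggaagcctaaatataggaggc
Nr1d1, chr11:98775378-98775627 (-): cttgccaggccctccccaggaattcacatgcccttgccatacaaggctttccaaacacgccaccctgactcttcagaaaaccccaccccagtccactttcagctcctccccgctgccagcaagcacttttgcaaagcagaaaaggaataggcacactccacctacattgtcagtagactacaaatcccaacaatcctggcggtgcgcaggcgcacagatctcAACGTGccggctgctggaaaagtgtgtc
Nr1d2, chr14:18239107-18239356 (-): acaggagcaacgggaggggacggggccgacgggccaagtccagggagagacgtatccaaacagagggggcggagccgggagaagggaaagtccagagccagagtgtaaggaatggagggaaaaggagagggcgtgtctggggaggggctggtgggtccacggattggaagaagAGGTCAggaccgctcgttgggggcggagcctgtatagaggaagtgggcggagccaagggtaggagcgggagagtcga
Per3, chr4:151044666-151044915 (-): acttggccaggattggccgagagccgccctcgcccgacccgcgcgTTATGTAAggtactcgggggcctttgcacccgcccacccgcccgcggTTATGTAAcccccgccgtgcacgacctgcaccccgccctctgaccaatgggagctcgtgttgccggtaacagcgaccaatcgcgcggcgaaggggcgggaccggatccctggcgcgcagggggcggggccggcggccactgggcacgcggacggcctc
Cry1, chr10:85185055-85185304 (-): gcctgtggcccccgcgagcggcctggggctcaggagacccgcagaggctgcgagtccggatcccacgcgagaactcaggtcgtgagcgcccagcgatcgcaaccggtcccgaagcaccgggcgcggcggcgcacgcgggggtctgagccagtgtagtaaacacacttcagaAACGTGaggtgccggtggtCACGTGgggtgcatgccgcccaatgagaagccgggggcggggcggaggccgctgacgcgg
Arntl, chr7:113207530-113207559 (+): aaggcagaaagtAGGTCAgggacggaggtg
Per1 had the most kinds of motif: its first window held the E-box CACGTG at -166, the RORE core as TGACCT at -137 and the D-box TTATGCAA at -24, and its second window held TGACGTC at -132, positions being those of the first base of the match relative to the start. Nr1d1 held only the E-box variant, as AACGTG at -28. Nr1d2 held the RORE core at -77, and Per3 held the D-box TTATGTAA both at -205 and at -158. Cry1 held the E-box at -60 and the variant AACGTG at -79, and Arntl held AGGTCA at 32 bases into the transcript. In the windows not shown, Cry2 held AACGTG at -166, Clock held TGACCT at -119 in 1 of 3 windows, and Npas2 held none. Among 32851 promoter windows of the same length, 7.15% held CACGTG, 4.68% CACGTT, 3.38% TTATGNAA, 16.3% AGGTCA, 1.79% TGACGTCA and 3.21% TGACGTC. These matches describe letters in the reference and were not tested for binding.

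Directly after the run, Per1 was higher and Nr1d1 was lower than in sedentary mice, and no other clock gene tested passed the threshold. Over both diets Per1 rose by 0.54 on the log2 scale (SE 0.09, 24 exercised and 20 sedentary mice), which is 1.46-fold, with an adjusted p of 6.89e-05 in limma. Nr1d1 fell by 0.93 (SE 0.19), to 0.524 of its sedentary level, with an adjusted p of 0.00224. These 2 of 8 genes compare with 1.19% of all 18522 probe sets called in this comparison, 0.961% higher and 0.232% lower, and at an unadjusted p under 0.05 the same 2 of 8 genes passed, against 9.26% of all. In liver tissue, fewer cells of a type and less RNA per cell cannot be told apart.

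Per1, a repressor of the loop and an immediate target of outside signals, had a median of 5.58 in the 10 sedentary mice fed the control diet and ranged there from 5.01 to 6.00. In the 12 exercised mice on that diet it lay between 5.80 and 6.61, with a median of 6.14. The groups overlapped, but 8 of 12 exercised mice were above every sedentary mouse and 12 of 12 were above the sedentary median. On the vitamin E diet Per1 lay between 5.11 and 5.96 in sedentary mice, with a median of 5.58, and between 5.68 and 6.61 in exercised mice, with a median of 6.13. Here too 8 of 12 exercised mice were above every sedentary mouse and 12 of 12 above the sedentary median. The means ± SD were 5.59 ± 0.37 and 6.18 ± 0.26 on the control diet (n = 10 and 12) and 5.59 ± 0.24 and 6.09 ± 0.26 on the vitamin E diet (n = 10 and 12). The difference was 0.59 (SE 0.12, 95% interval 0.34 to 0.84) on the control diet, with an adjusted p of 0.00717 in limma. It was 0.50 (SE 0.12, 95% interval 0.25 to 0.74) on the vitamin E diet, where the adjusted p of 0.0681 in limma missed the threshold. The difference between these effects was not detected, as given below with the diet.

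Nr1d1, the REV-ERBα gene, lay between 5.14 and 6.95 in sedentary mice fed the control diet (median 6.17), and between 4.38 and 6.37 in exercised mice, with a median of 5.00. On this diet 7 of 12 exercised mice were below every sedentary mouse and 11 of 12 were below the sedentary median. On the vitamin E diet it lay between 4.75 and 6.17 in sedentary mice, with a median of 5.86, and between 3.69 and 6.15 in exercised mice, with a median of 4.88. There 6 of 12 exercised mice were below every sedentary mouse and 11 of 12 below the sedentary median, so the groups overlapped on both diets. Means ± SD were 6.03 ± 0.65 and 5.07 ± 0.64 on the control diet (n = 10 and 12) and 5.73 ± 0.48 and 4.83 ± 0.70 on the vitamin E diet (n = 10 and 12). The differences were -0.96 (SE 0.26, 95% interval -1.49 to -0.43) and -0.90 (SE 0.26, 95% interval -1.43 to -0.37). Within a single diet neither passed the threshold, with adjusted p of 0.0836 and 0.219 in limma, and the call for Nr1d1 came from both diets together. Nr1d1 overlaps the opposite-strand gene Thra in the annotation, and Thra differed by -0.14 (SE 0.07, adjusted p = 0.614 in limma) after exercise.

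**Figure D1:**
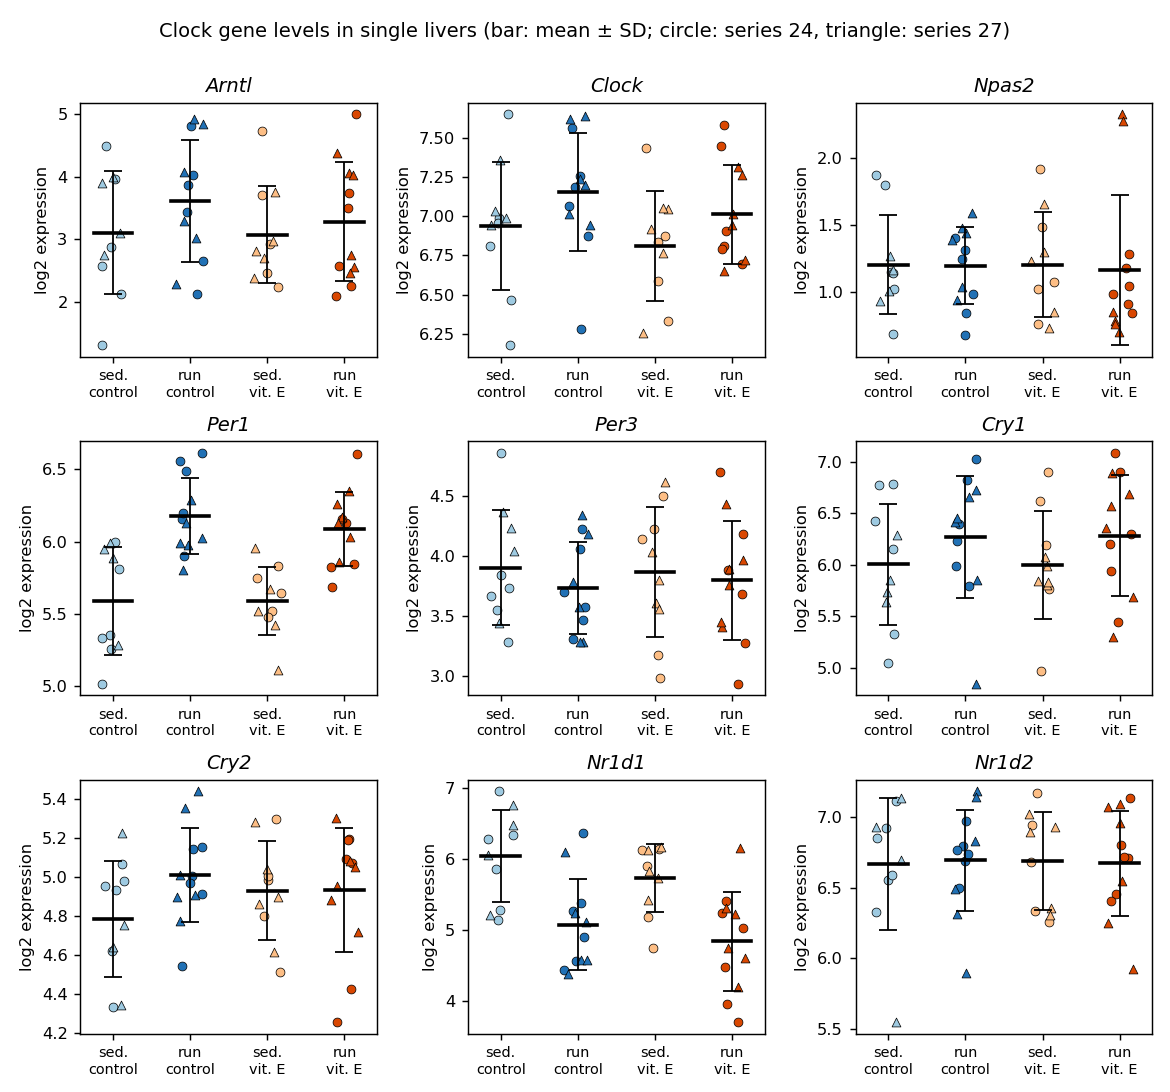
Log2 expression of the 9 clock genes with a probe set of their own in each of the 44 livers, by group; black bars show the mean and SD, circles mice of number series 24 and triangles mice of number series 27. Per1 points of exercised mice sit above the sedentary median on both diets (12 of 12 on each), Nr1d1 points sit mostly below it (11 of 12 on each), and the other panels overlap broadly.

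The remaining clock genes differed by less after the run, and none passed the threshold. Cry1, a repressor of the loop, differed by 0.27 over both diets (SE 0.17, 95% interval -0.07 to 0.62), and Clock, the partner of BMAL1, by 0.21 (SE 0.11, 95% interval -0.01 to 0.43). Arntl, which encodes BMAL1, differed by 0.36 (SE 0.27), and its 95% interval from -0.20 to 0.91 was the widest of the 8. Cry2, the second cryptochrome, differed by 0.12 (SE 0.09, 95% interval -0.06 to 0.29), and Per3 by -0.12 (SE 0.14, 95% interval -0.40 to 0.17). Nr1d2, the REV-ERBβ gene, differed by 0.00 (SE 0.12, 95% interval -0.23 to 0.24). The adjusted p of these 6 genes lay between 0.570 and 0.994 in limma. Over the 8 genes the median difference was 0.16, against 0.00 over all probe sets tested. On the control diet 1 of 8 genes was called and on the vitamin E diet 0 of 8, where 0.68% and 0.232% of all probe sets were called. At an unadjusted p under 0.05, which the methods used, 2 of 8 genes passed on each diet, again Per1 and Nr1d1, against 9.39% and 6.16% of all probe sets.

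**Figure D2:**
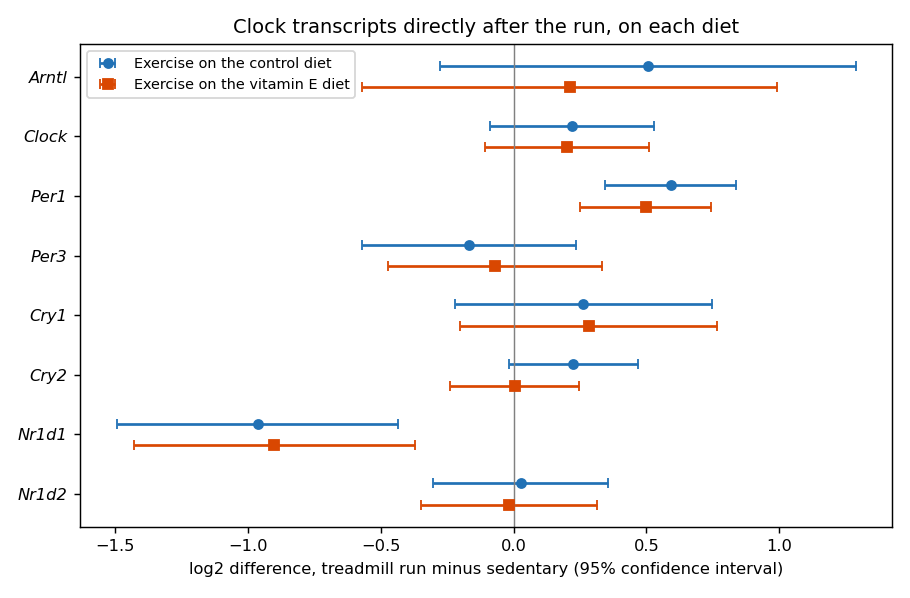
Difference between exercised and sedentary mice (log2) for the 8 tested clock genes, on the control diet (blue circles) and the vitamin E diet (orange squares), with 95% confidence intervals from limma. The intervals of Per1 lie above 0 and those of Nr1d1 below 0 on both diets, and the intervals of the other 6 genes include 0.

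Npas2, which can take the place of Clock in the activating pair, lay between 0.684 and 2.32 over all 44 mice, and its group means were 1.21, 1.20, 1.21 and 1.16 in the order sedentary control, exercised control, sedentary vitamin E and exercised vitamin E. Per3 had group means of 3.90, 3.73, 3.86 and 3.80 in the same order, with SD of 0.39 to 0.54. Clock had group means of 6.94, 7.16, 6.81 and 7.01 and ranged from 6.18 to 7.65. Cry2 had 4.78, 5.01, 4.93 and 4.94, Cry1 had 6.01, 6.27, 6.00 and 6.28, and Nr1d2 had 6.67, 6.69, 6.69 and 6.67. For these genes the group means lay closer together than the highest and lowest mice of any single group.

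A pair of measured paralogs from each of 3 families was set against each other within each mouse. This was done after their values had been seen, so these differences are a description without a test. The difference between Nr1d1 and Nr1d2 in the same liver changed by -0.94 with exercise (SE 0.14), by -0.99 on the control diet and by -0.88 on the vitamin E diet. The difference between Per1 and Per3 changed by 0.66 (SE 0.16), by 0.76 on the control diet and by 0.57 on the vitamin E diet. That between Cry1 and Cry2 changed by 0.16 (SE 0.20), by 0.04 and by 0.28.

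No difference between the diets was detected in the clock genes. In sedentary mice the 8 differences between the diets ran from -0.30 (Nr1d1) to 0.15 (Cry2), and in exercised mice from -0.33 (Arntl) to 0.06. The diet by exercise interaction, which asks whether the response to the run differed between the diets, ran from -0.29 (Arntl) to 0.10. None of the 8 genes passed the threshold in limma in any of these 3 comparisons, none passed at an unadjusted p under 0.05, and the smallest unadjusted p were 0.254, 0.326 and 0.203. Over all probe sets 0% was called in each, and 4.77%, 5.6% and 5.49% passed at an unadjusted p under 0.05. The 95% intervals of the interaction reached 0.34 to 1.11 to either side of the estimate. Those of the diet difference reached 0.25 to 0.82 in sedentary mice and 0.23 to 0.75 in exercised mice. These widths are not limits of detection, because the threshold was adjusted over all probe sets and differences beyond them can miss it too. The interaction was -0.09 for Per1 and 0.06 for Nr1d1. For both genes its sign differed between the number series described next.

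Every group held mice whose animal numbers start with 24 (23 mice) and mice whose numbers start with 27 (21 mice), and what these series stand for is not given. The series differed in 1.8% of all probe sets but in 0 of the 8 clock genes, whose differences ran from -0.16 to 0.17, with a smallest adjusted p of 0.720 in limma. Within series 24 Per1 was 0.86 higher after the run on the control diet (adjusted p = 0.0839 in limma) and 0.40 higher on the vitamin E diet, and within series 27 it was 0.26 (adjusted p = 0.878) and 0.60 higher. The call for Per1 on the control diet was thus not held within either series. Over both diets Per1 differed by 0.63 in series 24 (adjusted p = 0.0286) and by 0.43 in series 27 (adjusted p = 0.138), and Nr1d1 by -0.90 (adjusted p = 0.323) and -0.98 (adjusted p = 0.155). With series as a block the Per1 and Nr1d1 calls over both diets stood, with adjusted p of 8.33e-05 and 0.00223.

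Several clock genes varied widely between mice of the same group. Arntl ranged from 1.31 to 4.48 in sedentary mice on the control diet, from 2.12 to 4.92 in exercised mice on that diet, from 2.25 to 4.73 in sedentary vitamin E mice and from 2.096 to 4.99 in exercised mice on it. The medians were 2.98, 3.65, 2.88 and 3.12. Its SD within groups was 0.93, larger than that of 94.5% of all tested probe sets and of 91.9% of the 2659 with a mean within 0.5 of its own. Nr1d1, with an SD of 0.63, and Cry1, with 0.57, exceeded 92.6% and 91.6% of the probe sets of like level. Nr1d2 (SD 0.39), Clock (0.36) and Per3 (0.48) exceeded 83.4%, 81.2% and 75.8%. Per1 (0.29) and Cry2 (0.28) were closer to the middle, at 66.1% and 47.4%.

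**Figure D3:**
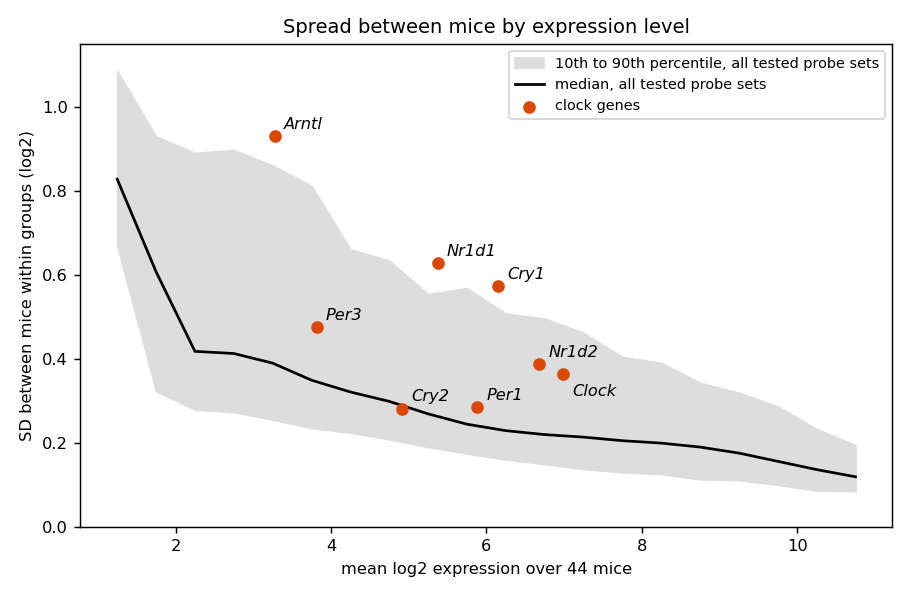
SD between mice within groups (log2) against mean log2 expression over the 44 mice; the line is the median and the grey band the 10th to 90th percentile of all tested probe sets in steps of level, and orange points are the 8 tested clock genes. Arntl, Nr1d1 and Cry1 lie at or above the upper edge of the band, and Cry2 lies near the line.

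Across mice of the same group, most clock genes varied together, in opposed sets. With each group's mean removed, Clock rose with Arntl (Pearson r = 0.83, Spearman rho = 0.82) and so did Cry1 (r = 0.76, rho = 0.78) over 44 mice. Nr1d1 fell as Arntl rose (r = -0.75, rho = -0.71), as did Nr1d2 (r = -0.73, rho = -0.76) and Per3 (r = -0.69, rho = -0.65). In each of these 5 relations both permutation p were 1e-05, the smallest that 100000 permutations of mice within groups can give. The permutations treated mice as independent and did not keep the relation between same-numbered mice of different groups that is given below. Npas2, at its low level, rose with Arntl less closely (r = 0.43, permutation p = 0.00431, and rho = 0.38, permutation p = 0.0126). Per1 (r = -0.14, permutation p = 0.374, and rho = -0.09, permutation p = 0.567) and Cry2 (r = -0.14, permutation p = 0.386, and rho = -0.17, permutation p = 0.287) showed no detectable relation.

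These 8 relations were 1 family, and adjustment was made over the whole array rather than over the family. In limma, with Arntl beside group as a covariate, 5 of the 7 other tested clock genes passed at an adjusted p under 0.05, against 6.98% of 18521 probe sets. Per unit of Arntl on the log2 scale, Clock rose by 0.32 (adjusted p = 5.06e-08) and Cry1 by 0.47 (adjusted p = 2.95e-06). Nr1d1 fell by 0.51 (adjusted p = 4.67e-06), Per3 fell by 0.35 (adjusted p = 6.72e-05) and Nr1d2 fell by 0.30 (adjusted p = 2.01e-05). Per1 and Cry2 had adjusted p of 0.695 and 0.711. With Nr1d1 as the covariate, Arntl, Clock, Cry1, Per3 and Nr1d2 passed, against 2.9% of all probe sets, and with Per1 as the covariate 0 of 7 clock genes and 0% of all probe sets passed, 1 of the 7 (Cry2, p = 0.0477) at an unadjusted p under 0.05.

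Some single livers with extreme Arntl values show the pattern closely, and others less so. Among sedentary mice on the control diet, mouse 5 had the lowest Arntl (1.31) and with it Clock at 6.18, Cry1 at 5.33, Per3 at 4.86 and Nr1d1 at 6.95, which were the lowest Clock and the highest Per3 and Nr1d1 values of its group. Mouse 2 of the same group had the highest Arntl (4.48), with Clock at 7.65, Cry1 at 6.78, Per3 at 3.29 and Nr1d1 at 5.14, the highest Clock and the lowest Per3 and Nr1d1 of the group. Among exercised mice on the vitamin E diet, mouse 2 had the highest Arntl of all 44 (4.99), with Clock at 7.58, Cry1 at 7.09, Per3 at 2.94 and Nr1d1 at 3.69. In Per1 this last mouse was at 6.13, close to the median of its group. Among sedentary mice on the vitamin E diet, mouse 3 had the lowest Arntl (2.245). Its Clock (6.33) was low and its Per3 (4.50) high, but its Nr1d1 (5.89) was close to the group median of 5.86.

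**Figure D4:**
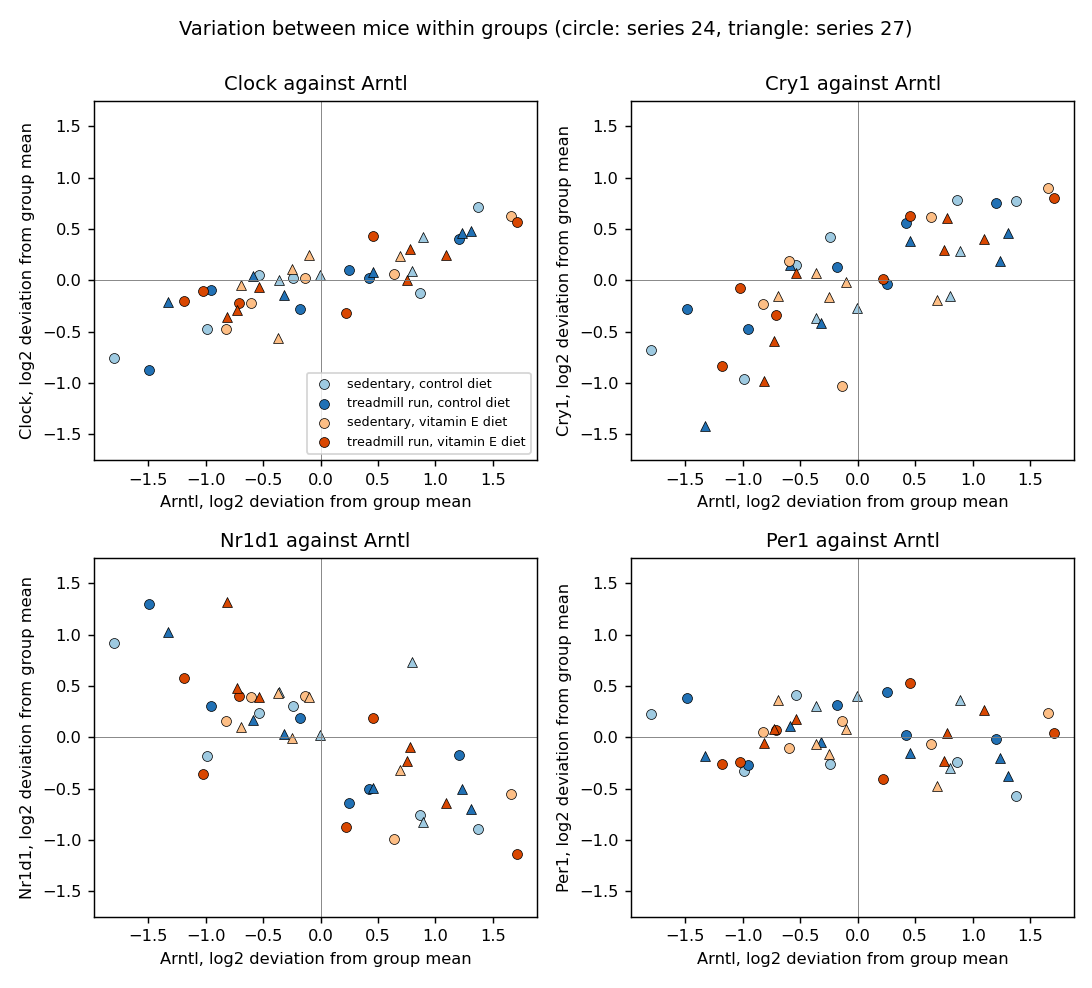
Deviation of Clock, Cry1, Nr1d1 and Per1 from the group mean against that of Arntl (log2), 1 point per mouse for 44 mice, coloured by group, with circles for number series 24 and triangles for 27. Clock (r = 0.83) and Cry1 (r = 0.76) rise with Arntl, Nr1d1 falls (r = -0.75), and Per1 shows no slope (r = -0.14).

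The sign of these relations was the same away from the extremes and within each subset of mice, although calls were lost in smaller subsets. Without the 2 mice farthest from the median of the group-centred Arntl values (mouse 2 of each vitamin E group), r was 0.80 for Clock, 0.73 for Cry1, -0.73 for Nr1d1, -0.72 for Nr1d2, -0.64 for Per3 and 0.41 for Npas2. Within series 24 and series 27, r was 0.86 and 0.79 for Clock, 0.82 and 0.77 for Cry1, -0.79 and -0.80 for Nr1d1, -0.78 and -0.80 for Nr1d2, and -0.77 and -0.62 for Per3. Within the 4 groups r ran from 0.80 to 0.87 for Clock, from 0.58 to 0.86 for Cry1, from -0.87 to -0.67 for Nr1d1, from -0.84 to -0.63 for Nr1d2 and from -0.83 to -0.59 for Per3. For Per1 the sign varied between groups, from -0.38 to 0.28. In limma the count of 5 genes called with Arntl was 5 in series 24, 4 (without Per3) in series 27 and 0 within each single group of 10 or 12 mice. Mice with the same replicate number in different groups had related Arntl values, with r of 0.33 to 0.80 over the 6 pairs of groups, and with that number as a block 4 of the 5 genes were called, again without Per3. What the numbers stand for is not given, and their part in the relations was otherwise not tested.

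Among the other pairs of clock genes, those with the same sign of relation to Arntl rose together. Nr1d1 went with Per3 (r = 0.72) and with Nr1d2 (r = 0.64), Per3 with Nr1d2 (r = 0.63), and Clock with Cry1 (r = 0.62). Cry1 went against Per3 (r = -0.74), Nr1d1 (r = -0.68) and Nr1d2 (r = -0.66). Per1 reached 0.31 with Cry2 and 0.21 with Nr1d1, and otherwise lay between -0.23 and 0.13. These 36 pair correlations are given as a description, over mice that share arrays between all pairs.

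**Figure D5:**
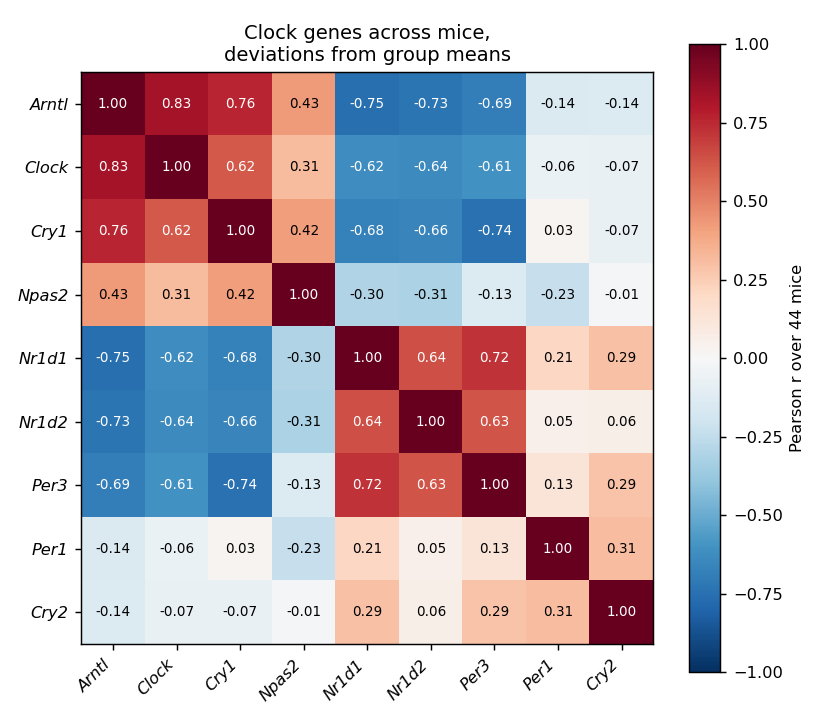
Pearson r between 9 clock genes over 44 mice after the mean of each group was removed; red is positive and blue negative. Arntl, Clock and Cry1 are positively related to each other and negatively to Nr1d1, Nr1d2 and Per3, while Per1 and Cry2 stand apart, with r of at most 0.31 to any other gene.

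Because Nr1d1 varied so closely against Arntl, the exercise comparison was repeated with the Arntl value of each mouse as a covariate. This step was added after the data had been seen. Arntl was itself measured after the run and is repressed by REV-ERBα, so the fit cannot separate changes in the 2 genes. Over both diets Nr1d1 then differed by -0.75 (SE 0.13, adjusted p = 0.000214 in limma) and Per1 by 0.56 (SE 0.09, adjusted p = 7.40e-05). The difference of Nr1d1 was -0.71 on the control diet (adjusted p = 0.0534) and -0.79 on the vitamin E diet (adjusted p = 0.0295). Of all probe sets 1.11% were called over both diets in this fit, 0.535% on the control diet and 0.248% on the vitamin E diet. Cry1 moved from 0.27 to 0.10, Clock from 0.21 to 0.09 and Per3 from -0.12 to 0.01, and none of them passed. In the same fit Nr1d1 differed between the diets in exercised mice by -0.41 (SE 0.17), against -0.24 without the covariate, at an unadjusted p of 0.0212 and an adjusted p of 0.839 in limma, where 5.77% of all probe sets passed unadjusted and 0% after adjustment. The interaction for Nr1d1 was -0.09 there and 0.06 without the covariate.

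The genes whose variation between mice was most like that of Arntl were ranked among 11557 probe sets with a single gene. The highest were Chka, a choline kinase (r = 0.88), the tubulins Tubb2a (r = 0.87) and Tubb2b (r = 0.83), Rai14 (r = 0.83) and the threonyl-tRNA synthetase gene Tars (r = 0.83). Tubb2a and Tubb2b are close paralogs, and their probes may share transcripts. The lowest were Dbp, a D-box activator and a classical output of the clock (r = -0.88), the alcohol dehydrogenase Adh4 (r = -0.81), Gm5524 (r = -0.81), 0610005C13Rik (r = -0.80) and Il15ra (r = -0.79). Chka, Tubb2a and Dbp had a larger r to Arntl, in size, than Clock, the closest of the clock genes. None of these 10 genes passed the threshold after exercise, with adjusted p between 0.455 and 0.994 in limma.

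Other genes of the clock pathway were counted from lists. Of 10 further loop genes, 9 had a probe set of their own and 7 were tested, and only Nfil3, the repressor that competes with DBP for D-boxes, passed after exercise over both diets (0.76, SE 0.20, adjusted p = 0.0369 in limma). Within groups Nfil3 rose with Arntl (r = 0.73) and Tef, a D-box activator like DBP, fell with it (r = -0.69). Besides Dbp, the remaining tested genes of the list had smaller r in size: Ciart -0.46, Bhlhe40 0.23, Rora -0.22 and Hlf -0.004. Dbp differed by -0.48 after exercise (SE 0.25, adjusted p = 0.565 in limma), and at an unadjusted p under 0.05 Rora, Bhlhe40 and Ciart passed beside Nfil3. These 1 and 4 of 7 genes compare with 1.19% of all probe sets called and 9.26% at an unadjusted p under 0.05. The median of the 7 genes was 0.14, against 0.00 over all probe sets. Of 11 tested genes for clock-modifying enzymes (casein kinases, F-box proteins, Sirt1, Nampt and AMPK subunits), 0 passed, with a median of 0.04, and at an unadjusted p under 0.05 only Sirt1 did. Of 7 tested heat and cold responsive genes 0 passed, with a median of -0.06 and none at an unadjusted p under 0.05. Between mice their r to Arntl varied: Hsph1 0.72, Hspb1 0.71, Hsp90aa1 0.65, Dnajb1 0.39, Hspa1b 0.37, Hspa1a -0.09 and Cirbp -0.45.

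Some genes of the signals to which Per1 is known to answer rose in the same livers. Of 8 tested glucocorticoid-responsive genes 4 were higher and 0 lower over both diets, where 0.961% of all probe sets were higher: Igfbp1 by 1.60 (SE 0.19), the phosphatase gene Dusp1 by 1.23 (SE 0.10), the kinase gene Sgk1 by 1.01 (SE 0.12) and Tat, tyrosine aminotransferase, by 0.36 (SE 0.05), with adjusted p of 1.58e-06 or less in limma and a list median of 0.34. Of 6 tested cAMP and immediate early response genes 4 were higher and 0 lower: Nr4a1 by 1.92 (SE 0.30), Sik1 by 1.50 (SE 0.19), Egr1 by 1.29 (SE 0.17) and the coactivator gene Ppargc1a by 0.61 (SE 0.14, adjusted p = 0.0144 in limma), with a list median of 0.95. The other members did not pass, among them Tsc22d3 (0.33, adjusted p = 0.0947), Fkbp5 (0.18, adjusted p = 0.711) and Crem (0.38, adjusted p = 0.0544 in limma). Within groups, over 44 mice, the r of Per1 was -0.21 with Sgk1, 0.08 with Dusp1, -0.05 with Igfbp1 and 0.12 with Tat. It was -0.02 with Nr4a1, 0.04 with Sik1, -0.006 with Egr1 and -0.03 with Ppargc1a. Of the members not called, Zbtb16 had the largest r to Per1 (0.32). The part of these signals in the Per1 difference was not tested.

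Hepatocyte markers (8 of 8 above the filter level) had a mean level between 10.3 and 10.7 in every mouse, and only Tat, which is on the list above as well, changed with exercise. Of the 7 Kupffer cell, 2 neutrophil, 6 sinusoidal endothelial, 6 stellate, 3 cholangiocyte and 1 T cell markers tested, 0 passed after exercise over both diets. The Kupffer cell markers had medians of 0.33 on the control diet and -0.32 on the vitamin E diet, with 0 of 7 called on either, and of these Marco (-0.73 on the vitamin E diet) had an unadjusted p of 0.0287. The part of these cells in the clock gene values was not tested. Over both diets, at an unadjusted p under 0.05 only Lyve1 and, among hepatocyte markers, Tat and Cps1 did. No B cell, pancreatic or erythroid marker could be tested. The mean of 4 acute-phase transcripts was 11.3 and 11.0 in exercised control mice 3 and 6, 10.2 in sedentary vitamin E mouse 1 and 8.88 in exercised vitamin E mouse 2, and at most 7.88 in the other mice. Without exercised control mice 3 and 6 every count of called clock genes was unchanged.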

How the data were processed

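The authors hybridised liver RNA of 44 mice to Affymetrix Mouse Gene 2.1 ST arrays, 1 array per mouse, and processed them by RMA in Affymetrix Expression Console, as the submitters' processing notes name them, and the deposited values are normalized log2 expression values. They were used as deposited, with array medians between 1.53 and 1.669. Precision is limited by how many arrays there are, since arrays have no depth. The arrays carry no detection call in the file used here.

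Gene symbols came from the platform annotation, which gave 1 symbol to 23521 probe sets, several to 1820 and none to 16004. Each gene was read from the probe set that carries its symbol alone, with the highest mean if there were several. The filter was that of the methods: 18522 probe sets whose mean on the linear scale exceeded 4 in 1 or more groups were tested. All 4 groups entered 1 fit in limma 3.58.1 (R 4.3.3), and two-sided p-values were adjusted by Benjamini-Hochberg over all kept probe sets, with a call at an adjusted p under 0.05. Samples were grouped by the diet and exercise given in the labels. The labels call the mice biological replicates.

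All 10 clock genes were named, with called genes of the other lists (at most 4 a list), genes that a result turned on, and the 5 genes most and least like Arntl. Genes outside this rule (Thra, Tsc22d3, Fkbp5, Zbtb16, Crem, Marco, Tef, Hlf, Hsph1, Hspb1, Hsp90aa1, Dnajb1, Hspa1b, Hspa1a, Cirbp, Rora, Bhlhe40, Ciart, Sirt1, Lyve1 and Cps1) were named after their values were seen. The members, lists and comparisons were chosen with earlier results of these data known. Correlations used values with group means removed, and Pearson and Spearman p came from 100000 permutations of mice within groups (Python 3.11.15, numpy 2.4.6, matplotlib 3.10.9 for figures). The group fit was run on simulated data with independent noise and known changes in exercised control mice. The covariate fits and the correlations were not tested in this way. Promoter sequences are from RefSeq on GRCm38.p6, and the annotation was used for names, neighbours and these windows. Alternatives were no filter or a stricter one, quantile normalization, median centring, other variance settings, array weights, number series and replicate number as blocks, single series or groups, the mean of a gene's probe sets, the compared groups alone, Nr1d1 in place of Arntl, and subsets of mice. The Arntl covariate in the exercise and diet comparisons, leaving out each mouse in turn, the removal of series from the correlations, the replicate block on the Arntl relation, the paralog differences and the genes most like Per1 were added after the data had been seen.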

Additional observations from a re-analysis of the deposited data

Results flagged for a closer look

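Nr1d2 in sedentary mice on the control diet held 1 mouse far from the others. Mouse 7 of that group was at 5.547 on the log2 scale, and its gap to the nearest mouse was 0.492 of the range of the group, above Dixon's critical value for 10 mice. This was 1 of 18 groups of values tested, all from sedentary mice, and chance gives such a gap in about 1 in 20. The exercised groups, with 12 mice each, were not tested in this way. None of the 8 tested clock genes had a diet by exercise interaction past the threshold.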

How the results depend on the processing

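Over both diets the calls of Per1 and Nr1d1 stood under 12 and 11 of 13 alternatives, with adjusted p of 2.43e-05 to 0.138 and 0.000124 to 0.323 in limma; only series 24 alone left 1 call (Per1) and series 27 alone 0, each with fewer mice. On the control diet, where 1 clock gene was called, the count was 0 with only the compared groups fitted and in either series alone (0 and 0), and 2 with the stricter filter (fewer probe sets tested) or the replicate block. On the vitamin E diet, where 0 were called, it was 1 (Per1) with only the compared groups, the stricter filter, array weights or the probe sets of each gene averaged, 1 (Nr1d1) with Arntl as a covariate, and 2 with the replicate block. The cause was not tested. The count of 5 genes related to Arntl was 4, without Per3, in series 27 alone and with the replicate block, and 0 inside each single group of 10 or 12 mice, and it was 5 in the other settings tried. All counts for diet and interaction stayed at 0. So did those for series, leaving aside the replicate block, where the series difference rests on 1 mouse.

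Leaving out each mouse in turn, the count lay between 1 and 2 on the control diet (2 without exercised mouse 5 or 11 or sedentary mouse 2, Nr1d1 adjusted p 0.0248 to 0.187) and between 0 and 1 on the vitamin E diet (1, Per1, without exercised mouse 4 or sedentary mouse 7). It stayed at 2 to 2 over both diets and at 5 to 5 with Arntl.

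Directions that changed were all of uncalled values. Nr1d2 after exercise was -0.00338 (control diet) and -0.0090 (both diets) with quantile normalization, and over both diets -0.0079 with array weights and -0.0217 with the replicate block. On the vitamin E diet it was 0.0263 in series 24 and 0.0465 with the Arntl covariate. Cry2 after exercise on the vitamin E diet was -0.0024 with median centring, -0.0489 in series 24 and -0.0236 with the replicate block, and Arntl was -0.0240 in series 24. Per3 after exercise was 0.0094, 0.0059 and 0.0076 (control, vitamin E, both diets) with the Arntl covariate. The diet difference of Per1 in sedentary mice was -0.0195 with quantile normalization, -0.0095 with array weights and -0.242 in series 27. In exercised mice of series 27 that of Per1 was 0.0975 and that of Nr1d1 0.042. The interaction was -0.160 for Nr1d1 in series 24 and -0.0873 with the Arntl covariate, and 0.340 for Per1 in series 27. The series difference of Per1 was 0.0152 with median centring and 0.0015 without exercised control mice 3 and 6. That of Nr1d1 was -0.507 with the replicate block. Only replicate number 6 held mice of both series, so this last value rests on sedentary vitamin E mouse 6 alone.

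The replicate numbers were not treated as pairs in the main fits. Of 62 same-numbered pairs 0 correlated above 0.1 over all probe sets (-0.07 to 0.09). Between the exercised groups the 12 pairs ran from 0.02 to 0.09. Such values over all probe sets cannot show whether same-numbered mice are related in a few genes. For Arntl alone, same-numbered mice correlated by 0.33 to 0.80 between groups, and for Nr1d1 by -0.07 to 0.56. With the replicate block Nr1d1 differed after exercise by -1.04 (adjusted p = 0.0118 in limma) and -0.98 (adjusted p = 0.0332) on the control and vitamin E diets, and Per1 by 0.53 (adjusted p = 0.0240) on the latter. The counts over all probe sets were 114, 41 and 212 with the block and 126, 43 and 221 without it, on the control diet, the vitamin E diet and both.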

Other observations

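The genes whose variation between mice was most like that of Per1, ranked after the data had been seen among 11557 probe sets with a single gene, were Ubap2l (r = 0.67), Ubap2 (r = 0.63), Brwd1 (r = 0.63), Iqgap2 (r = 0.61) and Mtss1 (r = 0.60), and those most opposed were Cks2 (r = -0.57), Tspo (r = -0.55), Nenf (r = -0.54), Alkbh7 (r = -0.54) and Tmem256 (r = -0.53). None of these 10 is on the lists used above, and none passed the threshold after exercise, with adjusted p between 0.560 and 0.966 in limma. These values are a description over 44 mice with group means removed.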
